A study of Mus musculus with 42 samples.

Results

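Livers of obese wild type (WT) mice that had received resolvin E1 (RvE1) were compared with livers of lean WT mice. The comparison took the 7 libraries labelled as WT, high fat diet and RvE1 and the 7 labelled as WT, control diet and vehicle, which is 14 of the 42 libraries of the study. All mice were males of the C57BL/6J strain. The WT lean mice ate a control diet with 10% of its energy as fat and were injected with the ethanol and PBS vehicle. The WT obese+RvE1 mice ate a diet with 60% of its energy as fat and were injected with 300 ng of RvE1. Diets started at 6 weeks of age and lasted 15 weeks, injections into the abdominal cavity, at the lower left visceral fat pad, followed on 4 days in a row, and the whole liver was taken on day 5 after at least 4 h without food. A further 7 WT mice on the high fat diet with vehicle (WT obese) served to show which diet effects the RvE1-treated mice shared, and 7 obese and 7 lean mice without the receptor ChemR23 (KO, made by CRISPR/Cas9 on C57BL/6J, with WT littermates as the controls), all given vehicle, supplied a diet list from mice outside the WT groups. Diet and RvE1 differ together between WT obese+RvE1 and WT lean livers, so their parts in a difference cannot be told apart in that comparison. The comparison with WT obese livers holds the diet fixed.

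RvE1 is a lipid mediator made from eicosapentaenoic acid that limits inflammation and acts through ChemR23, the product of Cmklr1, a receptor it shares with the protein chemerin. The liver responds to a fat-rich diet by taking up and storing more fatty acid, by making less of its own unsaturated fat, and by changing genes under nuclear receptors such as CAR and the PPARs. Growth hormone, insulin and bone morphogenetic protein (BMP) signals also set the level of many hepatocyte genes.

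Reads on the genes listed in both WT tables ran from 17090178 over a median of 19745476 to 28623108 in WT lean livers. In WT obese+RvE1 livers they ran from 19311004 over 31058772 to 35833064. The RvE1 libraries were deeper, with 1.32 times the mean reads of the lean ones (exact two-sided permutation test, p = 0.0414, adjusted p = 0.193 over 14 values per mouse, smallest p the design allows 0.000583). The tissue label fitted the libraries, since all 12 hepatocyte markers were present and none was called. Alb, which encodes albumin, had normalized counts of 687038, 801751 and 1039720.0 in WT lean livers. In WT obese+RvE1 livers Alb stood at 603522, 789161 and 1060660.0. Here and below, runs of values for a group are its lowest, median and highest mouse, in normalized counts after all libraries were scaled together. The number that opens a mouse's identifier was in most cases shared by several mice, and among the WT mice each number held mice of 1 group only. RvE1-treated mice carried the numbers 30 (3 mice) and 7 (4 mice), and lean mice carried 8, 19, 21 and 26, so what the number stands for cannot be told apart from the group. Vehicle-treated obese mice carried 6, 22 and 27, so the same holds for RvE1 against vehicle.

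Of 13058 genes tested, 494 were higher and 350 lower in WT obese+RvE1 than in WT lean livers at a BH-adjusted p-value under 0.1 and a fold change above 1.5 (limma). That is 6.46% of the genes, 3.78% higher and 2.68% lower. The mice of both groups did not overlap in 259 of the 844 called genes, and in 462 or 3.54% of all genes. The count depended on how mice with a shared identifier number were treated. With that number as a random block (estimated correlation 0.487), 168 genes were higher and 95 lower, 2.01% of those tested. Scaling by read totals in place of size factors gave 527 higher and 241 lower, so higher calls made up 68.6% in place of 58.5%, while the median log2FC of all genes moved by 0.0548.

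The 6 higher and 6 lower genes with the smallest adjusted p-values had no overlap between lean and RvE1-treated mice. First of them was Cyp2b9 (chr7:26173411-26210661 in GRCm38), a cytochrome P450 gene. Cyp2b9 had normalized counts of 0, 2.81 and 6.09 in WT lean livers. In WT obese+RvE1 livers it had 1132, 2169 and 4363, and every treated mouse was far above every lean one (log2FC = 9.23 ± 0.39, adjusted p = 6.8e-10, SE throughout, on the log2(normalized count + 1) scale). WT obese livers spread more widely at 55.7, 374 and 5513, and the difference between treated and vehicle-treated obese livers was 2.88 ± 0.79 with a direct adjusted p of 0.769.

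Cyp2b10, a neighbour on the chromosome and the usual marker of CAR activity, was at 1.98, 5.54 and 9.99 in WT lean livers. It reached 82, 135 and 407 in WT obese+RvE1 livers, again with no overlap (log2FC = 4.73 ± 0.39, adjusted p = 2.1e-06). In WT obese livers Cyp2b10 lay at 10.9, 51.7 and 319. Because Cyp2b genes are close copies of each other, reads may have been split between them, as may those of Cyp4a12a and Cyp4a12b, of Scd1 and Scd3 and of Slc22a27 and Slc22a29, and Cyp2b13 was not in the joined table. The 250 bases before their start sites are shown because these neighbours rose together, with the half-site AGGTCA, to which nuclear receptors bind, in capitals on either strand (RefSeq, GRCm38.p6, 5′ to 3′ on the gene's strand). Cyp2b9 lies at chr7:26173159-26173408, plus strand, and Cyp2b10 at chr7:25897408-25897657, plus strand.
Cyp2b9: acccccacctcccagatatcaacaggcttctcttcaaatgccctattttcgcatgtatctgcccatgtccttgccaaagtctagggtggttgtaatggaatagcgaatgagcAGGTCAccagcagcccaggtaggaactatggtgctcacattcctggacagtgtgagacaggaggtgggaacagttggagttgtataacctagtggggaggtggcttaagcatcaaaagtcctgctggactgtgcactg
Cyp2b10: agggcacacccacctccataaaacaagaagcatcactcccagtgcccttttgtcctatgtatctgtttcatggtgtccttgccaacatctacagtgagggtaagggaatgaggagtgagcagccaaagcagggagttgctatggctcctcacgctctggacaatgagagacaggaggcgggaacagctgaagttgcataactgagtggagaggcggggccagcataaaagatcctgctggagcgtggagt
One match stood 138 bases before the start of Cyp2b9 and none in the Cyp2b10 window. AGGTCA or its complement was in 14% of the 32851 mouse promoter windows of this length, and in those of 2 of the 10 P450 and CAR genes called higher and 10 of 32 other members.

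**Figure D1:**
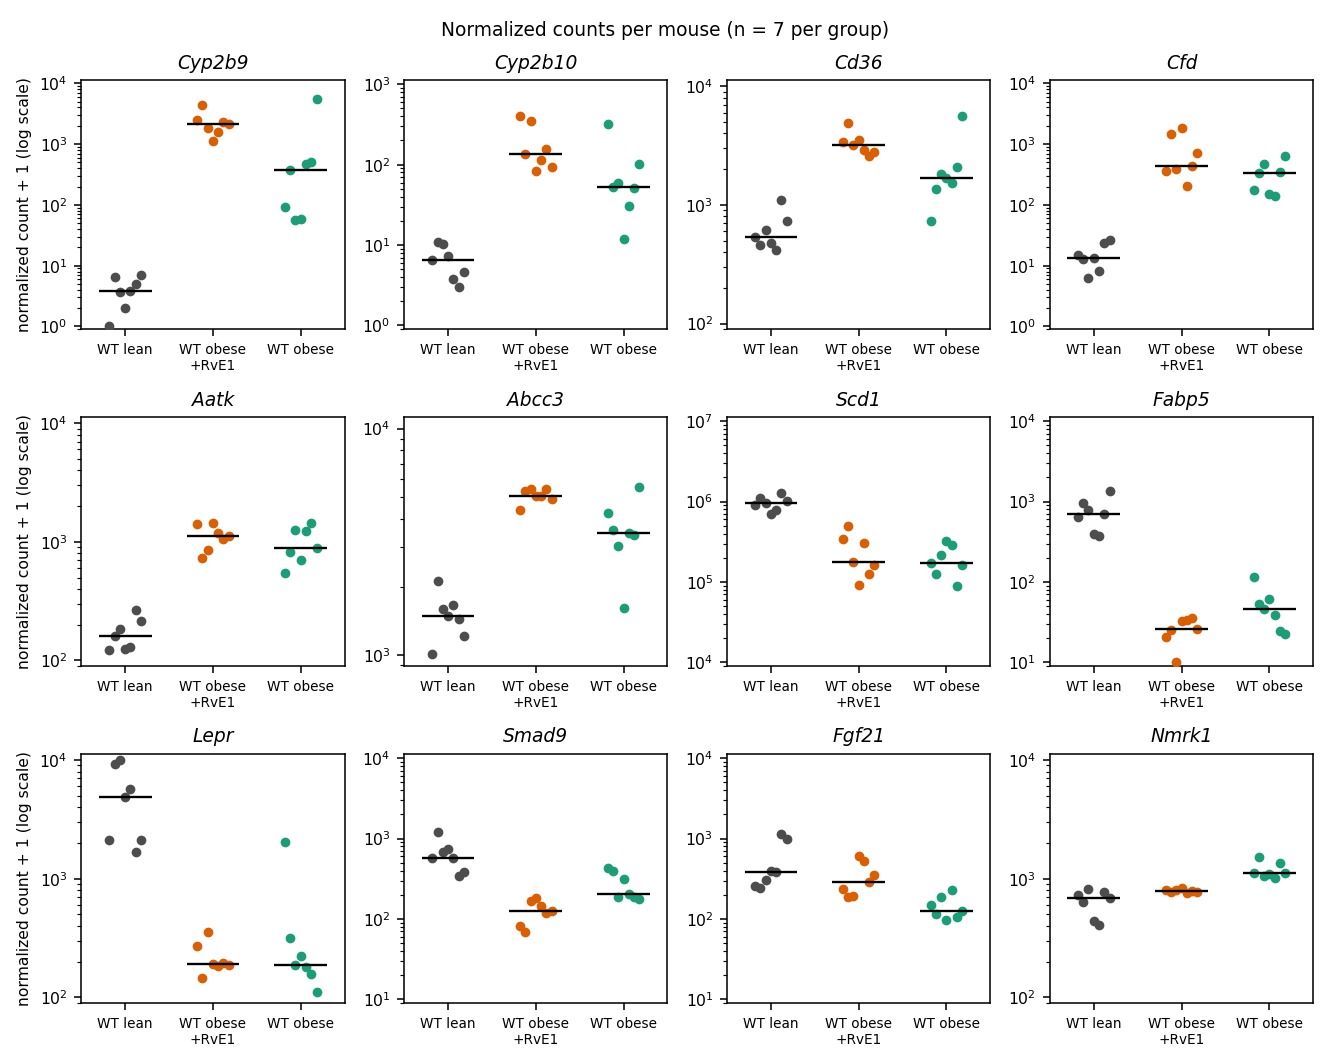
Normalized counts plus 1 on a log axis for 12 genes, with 1 point per mouse, 7 mice per group, and a bar at each group's median. Cyp2b9, Cyp2b10, Cd36, Cfd, Aatk and Abcc3 were higher and Scd1, Fabp5, Lepr and Smad9 lower in every WT obese+RvE1 mouse than in every WT lean mouse, while for Fgf21 and Nmrk1 these groups overlapped.

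The list of cytochrome P450 and CAR genes had 10 of 46 tested members called higher and 3 lower, with a median log2FC of 0.24 against 0.00077 for all genes. Nr1i3, which encodes CAR itself, was among them (log2FC = 1.06, adjusted p = 0.00827). Cyp2a4, a steroid hydroxylase gene, rose from 10.9, 62.7 and 94.8 in WT lean to 57.5, 150.0 and 357 in WT obese+RvE1 livers (log2FC = 2.01 ± 0.53, adjusted p = 0.0226), and 6 of 7 treated mice stood above all lean ones. Cyp2c37 (log2FC = 1.21) and Cyp2c50 (log2FC = 0.80) also rose. The lower ones were Cyp2c69, Cyp4a12a and Cyp4a12b, of which Cyp4a12b is a male-biased fatty acid hydroxylase gene that fell from 1457, 1698 and 2618 to 133, 341 and 648 without overlap (log2FC = -2.63 ± 0.30, adjusted p = 5.6e-05). With the block 9 members were called higher and 1 lower. Abcc3, a basolateral pump for bile acids and conjugates that CAR also regulates, went from 1013, 1486 and 2116 to 4362, 5035 and 5408 (log2FC = 1.78 ± 0.13, adjusted p = 5.5e-07), and no lean mouse reached the lowest treated mouse.

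Among other genes, Aatk, which encodes a kinase first linked to apoptosis, stood at 122, 159.8 and 263 in WT lean and at 728, 1113 and 1432 in WT obese+RvE1 livers (log2FC = 2.72 ± 0.19, adjusted p = 4.8e-07). Tpm2, a tropomyosin of the actin cytoskeleton, rose from 18.6, 21.1 and 28 to 136, 157 and 206 (log2FC = 2.81 ± 0.13, adjusted p = 2.6e-09). Themis, known as a signalling protein of developing T cells, rose from 2.72, 6.65 and 35.6 to 259, 336 and 581 (log2FC = 5.26 ± 0.39, adjusted p = 7.1e-07). None of the treated mice overlapped the lean ones in these genes. Slc22a27, an organic anion transporter gene, had 5.54, 11.9 and 27.9 against 89.9, 120.4 and 404 (log2FC = 3.39 ± 0.38, adjusted p = 4.5e-05), and its neighbour in the family Slc22a29, named after its values were seen, had a log2FC of 3.02 (adjusted p = 6.9e-06). Among genes that fell, Lepr, the leptin receptor, went from 1672, 4911 and 9963 to 145, 189.8 and 355 (log2FC = -4.29 ± 0.38, adjusted p = 3.5e-06). Adhesion receptor gene Gpr110 fell from 156, 594 and 816 to 9.99, 29 and 49.9 (log2FC = -4.09 ± 0.39, adjusted p = 7.7e-06). Apom, which carries sphingosine 1-phosphate on lipoproteins, fell from 1903, 2038 and 2525 to 815, 981 and 1134 (log2FC = -1.13 ± 0.09, adjusted p = 1.5e-06). In all of these the groups stood apart. Itih5 (log2FC = -1.41) and Rnf145 (log2FC = -1.01), a ubiquitin ligase of the sterol response, fell without overlap as well. Chrna4, a nicotinic receptor subunit, fell from 59.4, 335 and 962 to 4.11, 11.8 and 149 (log2FC = -4.25 ± 0.75, adjusted p = 0.00232), and here 6 of 7 treated mice stood below all lean ones.

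Of 31 tested members of the list for fat uptake, droplets and storage, 9 were higher and 1 lower, and 7 and 1 with the block. Here and in the lists that follow, members named beyond the 4 largest changes were chosen after their values were seen, and a gene that stands in several lists counts in each. Cd36, the fatty acid translocase, went from 415, 534 and 1109 in WT lean to 2584, 3208 and 4930.1 in WT obese+RvE1 livers (log2FC = 2.47 ± 0.20, adjusted p = 1.5e-06), and the groups did not overlap. Mogat1, which joins a fatty acid to monoacylglycerol, went from 1.38, 7.97 and 31.7 to 43.4, 62.3 and 123 (log2FC = 3.14 ± 0.45, adjusted p = 0.00042), also without overlap. Vldlr (log2FC = 2.11), which binds lipoproteins rich in triglyceride, and Pparg (log2FC = 1.91), the master regulator of fat storage, rose as well. So did Fitm1 (log2FC = 1.69), Plin4 (log2FC = 1.74), Acot11 (log2FC = 1.47), Fabp2 (log2FC = 0.88) and Cidea. Cidea, a protein of large lipid droplets, was at 0, 0 and 7.91 in lean and 4.95, 11.7 and 74.8 in treated livers, which is near the limit of detection in the former (log2FC = 3.01 ± 0.64, adjusted p = 0.00769), and it was not called with the block (adjusted p = 0.159). The list member that fell was Fabp5, a fatty acid binding protein, from 371, 690.4 and 1345 to 9.08, 24.7 and 34.8 (log2FC = -4.79 ± 0.31, adjusted p = 1.6e-07). Its values shared no range between the groups.

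In the list of lipogenesis and desaturation genes 12 of 28 tested members fell and none rose, with a median log2FC of -0.58. With the block 4 were called lower. Scd1 (chr19:44394455-44407879), the main stearoyl-CoA desaturase of liver and one of its most abundant transcripts, was at 703948, 959289 and 1262550.0 in WT lean livers. In WT obese+RvE1 livers Scd1 was at 91543, 178457 and 491780.0, below every lean mouse (log2FC = -2.18 ± 0.34, adjusted p = 0.00098). WT obese livers held 89195, 174628 and 321884, and the direct difference was 0.21 ± 0.38. Scd3 fell from 837, 1301 and 1794 to 163, 276 and 566 (log2FC = -2.17 ± 0.29, adjusted p = 0.00022). Of the elongases, Elovl6 went from 7063, 8808 and 20664 to 1379, 2168 and 7216 (log2FC = -1.95 ± 0.35, adjusted p = 0.00232), with 6 of 7 treated mice below all lean ones. Elovl3 went from 4484, 8042 and 9934 to 1414, 1900.4 and 3170.4 with no overlap (log2FC = -1.82 ± 0.21, adjusted p = 5.9e-05). Elovl5 was not called (log2FC = -0.62, adjusted p = 0.131). The front-end desaturase genes Fads1 (log2FC = -0.73), Fads2 (log2FC = -0.80) and Fads3 (log2FC = -1.62) fell, as did Acaca (log2FC = -0.83) and Acacb (log2FC = -0.88), the acetyl-CoA carboxylases. For Fasn, fatty acid synthase, the log2FC was -0.62 (adjusted p = 0.184) and for Acly, ATP citrate lyase, -0.47 (adjusted p = 0.389), both named after their values were seen and not called.

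In the cholesterol synthesis and uptake list 6 of 29 tested members were called lower and none higher (median log2FC -0.27), and 0 with the block. Pmvk, a mevalonate pathway kinase, went from 407, 827 and 1340.2 to 186, 292 and 682 (log2FC = -1.28 ± 0.30, adjusted p = 0.0137), and the groups overlapped. Idi1 (log2FC = -1.13) and Cyp51 (log2FC = -0.85) of the same route fell. Fatty acid oxidation and PPARα targets were split, with 3 of 42 members higher and 4 lower (3.78% and 2.68% among all genes) and 2 and 1 with the block. Cyp4a31, an omega-hydroxylase gene with a close copy in Cyp4a32, fell from 721, 788 and 1746 to 131, 282 and 441 with no overlap (log2FC = -1.92 ± 0.28, adjusted p = 0.00045). Acot1, an acyl-CoA thioesterase, fell from 3348, 4044 and 6779 to 1193, 2253 and 3078, also with no overlap (log2FC = -1.05 ± 0.21, adjusted p = 0.00537), and was not called with the block (adjusted p = 0.151). Ehhadh of peroxisomal oxidation fell by 1.07 on the log2 scale, and Vnn1 (log2FC = 0.96), Hadh (log2FC = 0.66) and Aldh3a2 (log2FC = 0.86) rose. Neither Ppara (log2FC = -0.01, adjusted p = 0.987) nor Cpt1a (log2FC = -0.39), the gate of mitochondrial oxidation, was called. For Cpt1a the adjusted p was 0.0332 and the fold change alone was too small.

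**Figure D2:**
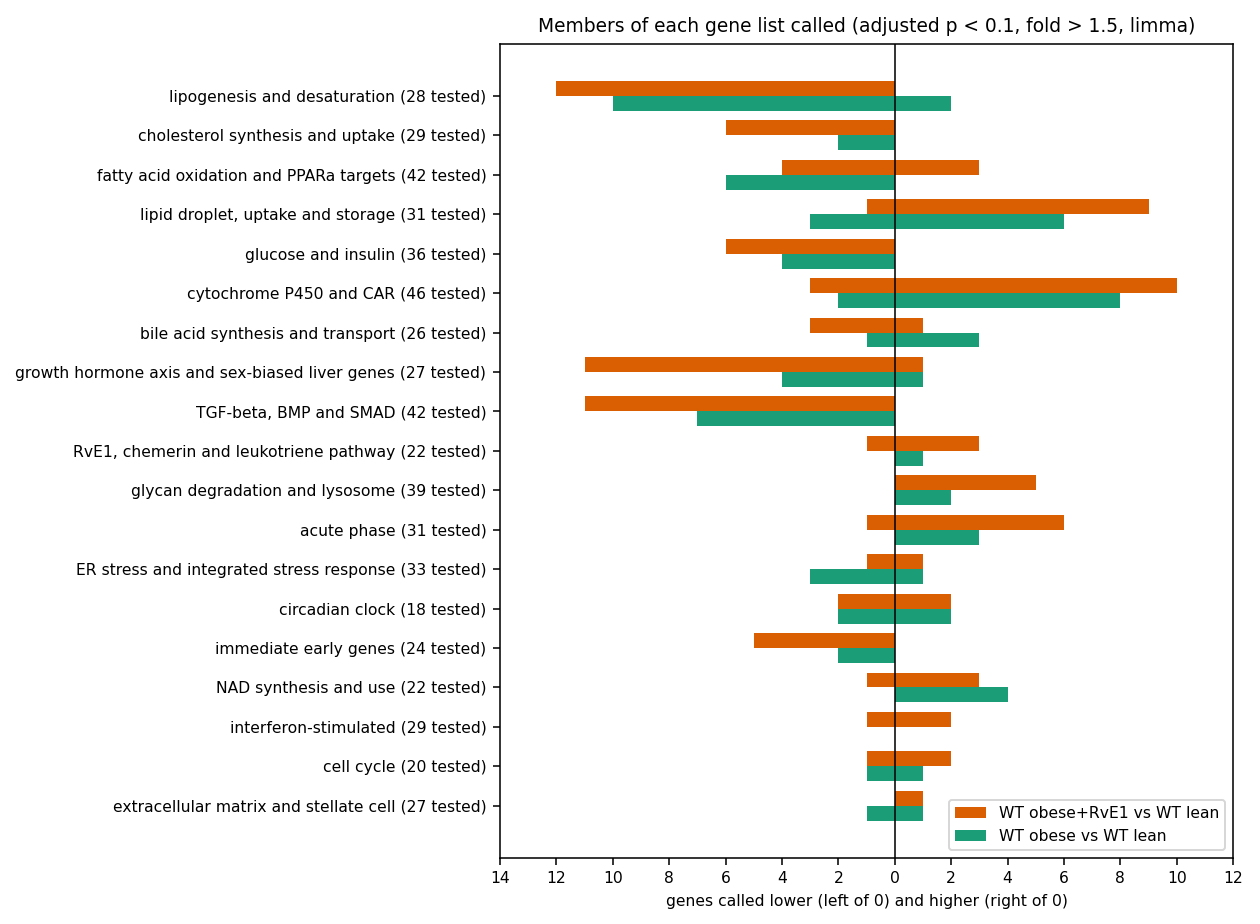
Number of members called higher (right of 0) and lower (left of 0) in each of 19 gene lists, for WT obese+RvE1 (orange) and WT obese (green) livers, both against the same 7 WT lean mice. Lipogenesis had 12 lower and 0 higher calls in RvE1-treated livers, and cytochrome P450 and CAR had 3 lower and 10 higher.

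Of 36 members of the glucose and insulin list 6 fell (3 with the block) and none rose, at a list median of 0.013. Irs2, the insulin receptor substrate, was at 692, 1245 and 5067 in WT lean livers. Irs2 was at 268, 403 and 605 in WT obese+RvE1 livers, below all lean mice (log2FC = -1.84 ± 0.33, adjusted p = 0.00248). Igfbp1, which insulin represses, went from 4821, 10625 and 44302 to 865, 4934 and 6442 with overlap (log2FC = -1.96 ± 0.49, adjusted p = 0.0184), and it was not called with the block (adjusted p = 0.231). Irs1 (log2FC = -0.73) and Igfbp2 (log2FC = -1.12) fell too, as did Sik1 and Nr4a1, which glucagon and cyclic AMP induce, while the gluconeogenic Pck1 (log2FC = -0.65) and G6pc (log2FC = -0.69), named after their values were seen, were not. Immediate early genes had 5 of 24 members lower, none higher and 0 with the block. Nr4a1, an orphan nuclear receptor of this class, went from 198, 817 and 6719 to 40.4, 184 and 533 (log2FC = -2.51 ± 0.70, adjusted p = 0.032), and lean mice spread over more than a decade. Btg2 (log2FC = -1.23), Junb (log2FC = -1.28) and Fosl2 (log2FC = -1.09) fell as well, though Fosl2 (adjusted p = 0.084) lost its call in 11 of 14 fits that left out 1 mouse. The clock list had Per3 and Tef higher and Clock and Nfil3 lower among 18 members, and only Per3 with the block. Tef and Clock each lost their call in 5 of the 14 fits, and Tef also with edgeR and DESeq2 and Clock also with equal read totals and thinned reads. Per3, a period gene, was at 242, 497 and 736 and 850.3, 936 and 1058, with every treated mouse above every lean one (log2FC = 1.06 ± 0.19, adjusted p = 0.00216).

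Of 42 tested genes of the TGF-β and BMP route 11 fell and none rose (median log2FC -0.24, 5 lower with the block). BMP ligands act in liver through SMAD proteins to raise the Id genes and hepcidin, the iron hormone encoded by Hamp. Smad9 (chr3:54755582-54801257), a BMP-responsive SMAD, had 339, 572 and 1217 in WT lean livers. Smad9 had 67.4, 126 and 182 in WT obese+RvE1 livers, all below the lowest lean mouse (log2FC = -2.30 ± 0.27, adjusted p = 7.7e-05). WT obese livers overlapped both groups at 177, 202 and 429.6, with a direct difference of -1.07 ± 0.26 and a direct adjusted p of 0.769. Smad1 (log2FC = -0.23) and Smad5 (log2FC = -0.04), which carry the BMP signal, were not called. Hamp went from 5209, 8166 and 9787 to 798, 1769 and 6437, with 6 of 7 treated mice below all lean ones (log2FC = -1.91 ± 0.37, adjusted p = 0.00391). Its copy Hamp2 was at 282, 435 and 902 in lean and 46, 294 and 2007 in treated livers and was not called (log2FC = 0.07 ± 0.68, adjusted p = 0.961), and reads of these copies may be shared. Id1, a direct BMP target, fell from 280.2, 508 and 958 to 110.2, 145 and 289 (log2FC = -1.53 ± 0.28, adjusted p = 0.00315), and its relatives Id2 (adjusted p = 0.00038) and Id3 (log2FC = -1.10) fell too. Among the other members that fell were Smad7 and Skil, feedback inhibitors of the route, and Atoh8, a regulator of hepcidin. Fst, which traps activins, went from 66.5, 255 and 1126 to 30.7, 52.7 and 92.9 (log2FC = -2.07 ± 0.50, adjusted p = 0.0147), and with the block its adjusted p was 0.129. The ligand genes Bmp4 (log2FC = -0.77) and Bmp6 (log2FC = -0.82), the latter made by sinusoidal endothelial cells, were also lower.

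The windows before the starts of Smad9, Hamp, Hamp2 and Id2 are printed, as a choice made after the values were seen, to show where GGCGCC, the core of the BMP response element described for hepcidin, stands in 3 genes that fell, and that the Hamp2 window has no match (capitals, a sequence that reads the same on both strands; RefSeq, GRCm38.p6, 250 bases, 5′ to 3′ on the gene's strand). They lie at chr3:54755332-54755581, plus strand, at chr7:30944030-30944279, minus strand, at chr7:30924182-30924431, minus strand and at chr12:25096093-25096342, minus strand.
Smad9: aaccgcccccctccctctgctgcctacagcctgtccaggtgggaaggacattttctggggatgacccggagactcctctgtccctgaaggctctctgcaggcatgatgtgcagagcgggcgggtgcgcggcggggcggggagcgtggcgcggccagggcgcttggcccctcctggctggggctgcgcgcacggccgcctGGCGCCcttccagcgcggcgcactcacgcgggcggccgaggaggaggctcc
Hamp: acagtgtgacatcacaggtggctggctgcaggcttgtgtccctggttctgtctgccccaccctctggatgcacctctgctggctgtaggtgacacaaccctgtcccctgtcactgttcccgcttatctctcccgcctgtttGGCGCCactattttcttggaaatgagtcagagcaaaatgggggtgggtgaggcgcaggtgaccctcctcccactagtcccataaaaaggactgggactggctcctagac
Hamp2: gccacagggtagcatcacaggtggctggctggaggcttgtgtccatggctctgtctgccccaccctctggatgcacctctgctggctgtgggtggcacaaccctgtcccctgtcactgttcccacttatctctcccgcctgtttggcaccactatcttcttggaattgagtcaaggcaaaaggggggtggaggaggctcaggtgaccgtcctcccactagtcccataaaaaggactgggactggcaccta
Id2: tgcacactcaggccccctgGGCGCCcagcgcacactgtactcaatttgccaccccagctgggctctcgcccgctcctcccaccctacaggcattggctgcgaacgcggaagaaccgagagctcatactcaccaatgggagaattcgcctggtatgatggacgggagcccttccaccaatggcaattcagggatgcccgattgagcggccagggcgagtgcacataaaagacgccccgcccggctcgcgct
The match was 51 bases before the start of Smad9, 109 before that of Hamp and 231 before that of Id2. GGCGCC was in 9.59% of all 32851 windows. Among genes of the list with a window, 3 of 7 called lower held it and 6 of 22 other members did, Smad5 and Bmpr1a included in the latter.

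The list of growth hormone axis and sex-biased genes had 11 of 27 members called lower and 1 higher, with a median log2FC of -0.61. It had 3 lower with the block, and Elovl3, Cyp4a12a, Cyp4a12b, Cyp7b1, Slco1a1 and Socs3 among its called genes also stand in other lists. Socs2, a growth hormone target, went from 505, 2754 and 3388 to 247, 309 and 1410.4 (log2FC = -2.42 ± 0.45, adjusted p = 0.00305), and 1 treated mouse lay within the lean range. Socs2 was not called with the block (adjusted p = 0.115). Hsd3b5, a male-specific steroid dehydrogenase gene, went from 2576, 6750.1 and 11285 to 139, 1570.4 and 2311 without overlap (log2FC = -2.36 ± 0.52, adjusted p = 0.00925), and its adjusted p was 0.174 with the block. Major urinary protein gene Mup20 (log2FC = -0.97), which has close copies, and the male-biased uptake transporter Slco1a1 (log2FC = -1.37) fell. In the bile acid list 1 of 26 members, Abcc3, was higher and 3 lower, namely Cyp7b1 (log2FC = -0.79), Klb (log2FC = -0.68), the co-receptor for endocrine FGFs, and Slco1a1. Among all genes 3.78% were higher and 2.68% lower, so 1 of 26 higher was near the background. Leaving out 1 mouse ended the call of Cyp7b1 in 5 of 14 fits and that of Klb in 1 (without lean mouse 19R), and with the block only Abcc3 was called.

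Acute phase genes, which hepatocytes secrete in inflammation, had 6 of 31 members higher and 1 lower (median log2FC 0.31, 2 higher with the block). Orm3, an orosomucoid, rose from 12.2, 25.3 and 39.6 to 75, 204 and 297 (log2FC = 3.01 ± 0.32, adjusted p = 2.5e-05). Lcn2, the iron-binding lipocalin, rose from 56.8, 171 and 219 to 288, 624 and 2781 (log2FC = 2.56 ± 0.45, adjusted p = 0.00203), and its adjusted p with the block was 0.11. Both stood apart from all lean mice. Saa4 (log2FC = 1.56), Saa3 (log2FC = 1.61), Hp (log2FC = 0.66) and Lbp (log2FC = 0.63) rose too, and Socs3, a feedback inhibitor of cytokine signals, was the lower member. Lysosomal and glycan-degrading genes had 5 of 39 members higher (2 with the block) and none lower. Hexa, a hexosaminidase subunit, rose from 402, 428 and 603 to 729, 849 and 953 with no overlap (log2FC = 0.88 ± 0.11, adjusted p = 0.0001). The NAD list had Aox1, Aox3 and Nmnat3 higher and Acmsd lower among 22 members, and the block fit called 2 higher. Aox3 lost its call without lean mouse 21R and with the block (adjusted p = 0.191). Aox1, an aldehyde oxidase, rose from 352, 482 and 710.2 to 985, 1019 and 1203 (log2FC = 1.14 ± 0.15, adjusted p = 0.00016).

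For the receptors and enzymes of RvE1 itself, Cmklr1, which encodes ChemR23, was at 44.5, 67.5 and 125 in WT lean and at 44.5, 62.7 and 143 in WT obese+RvE1 livers, and the groups overlapped (log2FC = 0.11 ± 0.27, adjusted p = 0.824). Rarres2, which encodes chemerin, had a log2FC of 0.24 ± 0.164. For Ltb4r1, the leukotriene B4 receptor that RvE1 also binds, it was -0.47 ± 0.269. Neither was called. This list also holds chemerin and leukotriene genes. Of its 22 tested members 3 were higher, namely Ephx1, Hpgd and Ptges, and Ltb4r2 was lower, and with the block 1 was called. Its members Alox5, Ptgs2, Alox12, Ltc4s, Gpr1, Ggt1 and Dpep1 were not in the joined table, so they were not tested. Ephx1, the microsomal epoxide hydrolase and a CAR target, rose from 1669, 2321 and 2464 to 3832, 4274 and 4302 with no overlap (log2FC = 0.94 ± 0.10, adjusted p = 2.9e-05). Hpgd (log2FC = 0.60), which inactivates prostaglandins and resolvins, was called at an adjusted p of 0.05, lost its call on leaving out any of 5 mice, and was not called with the block (adjusted p = 0.179). Ptges, a prostaglandin E synthase, was at 0, 6.92 and 14.8 in lean and 8.17, 23.8 and 51.1 in treated livers, which is few reads (log2FC = 2.27 ± 0.60, adjusted p = 0.0251).

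The other lists had up to 3 members called each. ER stress genes had Derl3 higher and Asns lower among 33 (6.06% called). Interferon-stimulated genes had Ifit1 and Ifit3 higher and Bst2 lower among 29 (10.3% called). Cell cycle genes had Mcm2 and E2f1 higher and E2f8 lower among 20 (15% called). The matrix and stellate cell list had Tpm2 higher among 27 (3.70% called). Of all genes 6.46% were called, so the ER stress share was near that background and the matrix share below it. With the block Bst2 and Tpm2 were the members of these 4 lists that remained called, the adjusted p of the others running from 0.201 for Asns to 0.415 for Derl3. Leaving out 1 mouse ended the call of Ifit3 in 9, of E2f8 in 5, of E2f1 in 4 and of Derl3 in 3 of 14 fits. Bst2, a tetherin, fell from 1296, 1571 and 2003 to 895, 1027 and 1194 with no overlap (log2FC = -0.69 ± 0.11, adjusted p = 0.00086). Complex I subunits had 0 of 35 members called. Cytosolic ribosomal proteins had 2 of 90 called lower, Rpl12 and Rpl38 (0 when scaled by read totals or with the block, and lost in 10 and 6 of 14 fits without 1 mouse), a median log2FC of -0.25 and a summed level 0.832 times that of lean livers (exact two-sided permutation test, p = 0.0198, adjusted p = 0.139 over 14 values per mouse).

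Of the markers of other cells, 5 were called, and 6.46% of all genes were. Fewer cells of a type and less RNA per cell cannot be told apart in whole liver. Of the Kupffer cell and macrophage markers 2 of 17 in the joined table, Itgam (log2FC = 0.77) and Trem2 (log2FC = 1.07), were higher, and neither was called with the block (adjusted p = 0.527 and 0.412). Itgam kept its call in 4 of 14 fits that left out 1 mouse, and Trem2 lost its call in the fit over 21 WT libraries. Trem2, a receptor of lipid-associated macrophages, had 4.17, 7.91 and 13.3 in lean and 7.27, 18 and 32.3 in treated livers. The summed level of this list ran from 6083 over 8081 to 12548 in lean livers. In treated livers it ran from 6237 over 9468 to 17952 (1.28 times the lean mean, exact two-sided permutation test, p = 0.233, list median log2FC 0.34), with Cd5l the most abundant member. Sinusoidal endothelial markers had 1 of 15 called, a share near that background, with Kdr lower (log2FC = -0.64, not called without any 1 of 9 mice or with the block), and Ehd3 as the most abundant, and their sum was 0.826 times that of lean livers (exact permutation p = 0.121). No marker was called among 6 of cholangiocytes, 6 of lymphocytes, 3 of neutrophils, 1 of acinar pancreas and 2 of erythroid cells. The neutrophil markers had a median log2FC of -0.70 and 0.603 times the summed level of lean livers (exact permutation p = 0.21), and the lymphocyte markers a median of 0.48 and 1.24 times the summed level (exact permutation p = 0.307). Among adipocyte markers 2 of the 6 present were called higher, Cfd and Cidea. With the block 1 was called, Cfd, while Cidea had an adjusted p of 0.159. Cfd, the complement factor adipsin made mainly by fat tissue, went from 5.32, 12.5 and 25.6 to 204, 440.2 and 1828 (log2FC = 5.44 ± 0.45, adjusted p = 2.2e-06), and no treated mouse was in the lean range. The summed level of the 6 markers ran from 10479 over 26768 to 68805 in lean and from 33427 over 40933 to 101990.1 in treated livers (1.83 times the lean mean, exact permutation p = 0.0758), with a median log2FC of 0.80. The defining fat cell genes Adipoq, Plin1, Lep and Retn were not in the joined table, and the most abundant of the list, Car3, is a hepatocyte gene as well. Without Cfd, Car3 and Pnpla2 the summed level of the list was 1.2 times that of lean livers (exact permutation p = 0.0157, adjusted p = 0.139). The part of admixed fat tissue in the Cfd difference was not tested.

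Diet effects were then followed into the treated livers. WT obese livers given vehicle differed from the same 7 WT lean mice in 310 genes higher (2.37% of 13058) and 201 lower (1.54%). Of these 511 genes, 362 or 70.8% were also called in WT obese+RvE1 livers, all in the same direction, and they made up 42.9% of the 844 genes called there. Among genes that the diet raised 231 of 310 remained called, and among those it lowered 131 of 201. With the block 122 of 228 diet effects were called in both. Without identifier number 6 the share was 179 of 351 (51%) with 1 gene opposite, and without number 7 it was 310 of 509 with 2 opposite. Genes raised by the diet had a median log2FC of 0.94 in WT obese and 0.88 in WT obese+RvE1 livers, and genes lowered by it one of -0.91 and -0.75. Since both comparisons use the same lean mice and the list was picked on the first, this nearness is a description without a test.

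The direct comparison of WT obese+RvE1 with WT obese livers called no gene (0% of 13058, limma), with 797 at an unadjusted p under 0.05 and a smallest adjusted p of 0.143. edgeR called 1 gene and DESeq2 13 in it, so the calls depended on the test. Direct adjusted p-values given for single genes are those of limma. The paper, which used DESeq2, reports Myc, Smad9, Fgf21 and Fndc1 as significant in this comparison. Without the vehicle-treated mice of identifier number 6, limma called 47 genes, 24 higher and 23 lower. It called 3 without mouse 6R alone. Of the 511 diet effects 149 were not called in treated livers, 79 higher and 70 lower, and 148 of them kept their sign. In 60 of the 149 the adjusted p was under 0.1 and the fold change alone was too small. The direct test passed for 0 of the 149, and 45 had an unadjusted p under 0.05, so that a missing call in treated livers does not show a change by RvE1.

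Nmrk1, a kinase that makes NAD from nicotinamide riboside, had the smallest direct p. It had 406, 682 and 816 in WT lean livers. WT obese livers were at 1020.0, 1117 and 1521 and WT obese+RvE1 livers at 758, 787 and 833, so all treated mice lay below all vehicle-treated obese mice and overlapped the lean ones. The direct difference in Nmrk1 was -0.57 ± 0.09 (unadjusted p = 1.1e-05, adjusted p = 0.143), and the log2FC against lean livers was 0.35 with RvE1 and 0.91 without. Fgf21, the fasting and stress hormone of the liver, went from 242, 383 and 1139 in lean to 95.1, 126 and 225 in WT obese livers. In WT obese+RvE1 livers it stood at 186, 285 and 610.5, overlapping the lean mice (log2FC = -0.51 against -1.68 without RvE1, direct difference 1.17 ± 0.27, direct adjusted p = 0.769).

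Some of the 18 list members called in WT obese and not in WT obese+RvE1 livers are given here, chosen after their values were seen. Plin2, the lipid droplet coat protein, was at 13230.2, 18182 and 31988 in lean, 7121, 8290.1 and 13758 in WT obese and 10211, 13369 and 20675 in treated livers, and its log2FC against lean was -1.02 on vehicle and -0.45 with RvE1. Cyp4a10 had a log2FC of -1.60 on vehicle and -0.58 with RvE1, and G0s2, an inhibitor of lipolysis, one of -1.29 and -0.54. Direct differences were 0.57 ± 0.19 for Plin2, 1.02 ± 0.43 for Cyp4a10 and 0.75 ± 0.33 for G0s2, with direct adjusted p-values of 0.769, 0.786 and 0.795. Thrsp, a lipogenic factor, rose on vehicle by 2.17 and stood at 1.18 with RvE1 (adjusted p = 0.145). Cyp7a1, the first enzyme of bile acid synthesis, rose on vehicle by 1.17 and stood at 0.38 with RvE1 (direct adjusted p = 0.769). By the rule for genes with a diet call and a log2FC under 0.2 in size after RvE1, Tnfrsf10b (0.93 on vehicle, 0.06 with RvE1), Mustn1 (-0.78 and -0.20), Rdh16 (-0.60 and -0.13) and Hamp2 (-0.96 and 0.07) were named.

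**Figure D3:**
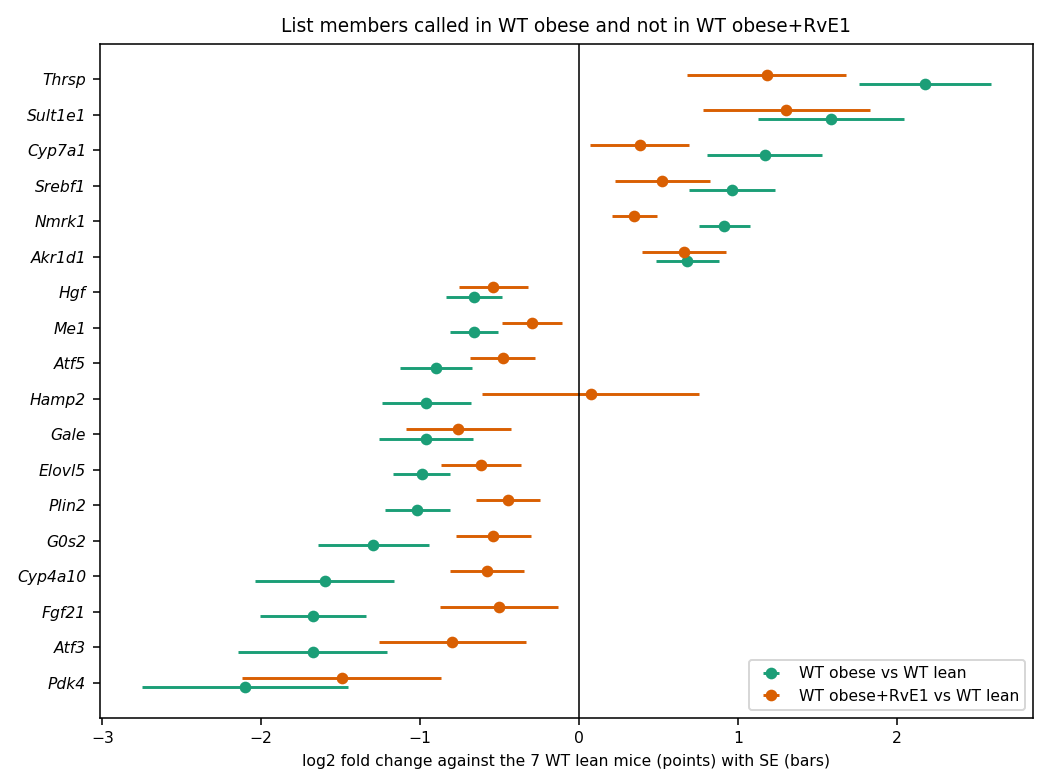
Log2FC against the same 7 WT lean mice with SE bars, for the 18 list members called in WT obese livers (green) and not in WT obese+RvE1 livers (orange). Fgf21 stood at -1.68 on vehicle and -0.51 with RvE1, and 17 of the 18 genes lay on the same side of 0 in both, Hamp2 being the other one.

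In turn, 482 genes were called in WT obese+RvE1 livers and not in WT obese livers, 263 higher and 219 lower. Of these 474 had the same sign on vehicle, 259 an unadjusted p under 0.05 there, and 28 a log2FC under 0.2 in size on vehicle. Those of the last kind with the smallest adjusted p-values were Baz2b, Akap5, Dlgap1 and Lrrc16a. Baz2b, a chromatin reader, had 444, 518 and 659 in lean, 352, 507 and 583 in WT obese and 328, 341 and 388 in treated livers, and the treated mice lay below all lean mice (log2FC = -0.61 ± 0.09, adjusted p = 0.00065). Without lean mouse 26L its log2FC was -0.56 and without lean mouse 8R -0.58, under the fold threshold, as it was with equal read totals (-0.55) and the length and GC correction (-0.51). Akap5, a scaffold for protein kinase A, was at 47.5, 57.2 and 76.8 in lean and 23.7, 30.2 and 38.5 in treated livers with no overlap (log2FC = -0.88 ± 0.15, adjusted p = 0.002, 0.125 with the block), and at 29.9, 61.8 and 92.5 in WT obese ones. Direct differences were -0.41 ± 0.11 for Baz2b and -0.86 ± 0.22 for Akap5, each with a direct adjusted p of 0.769. Dlgap1 (log2FC = -0.81, 0.07 on vehicle) and Lrrc16a (log2FC = -0.70, -0.04 on vehicle) were lower as well, and neither was called with the block (adjusted p = 0.25 and 0.127).

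Among the 6 genes with the smallest direct p-values of those called in either obese group, Ces3b, a carboxylesterase of the endoplasmic reticulum, had 5959, 8999.5 and 14208 in lean, 7098, 10940.2 and 15301 in WT obese and 4536, 6544 and 7140.0 in treated livers (log2FC = -0.60 ± 0.18, adjusted p = 0.0417). Its direct difference was -0.80 ± 0.16, and its call against lean mice was lost without lean mouse 21L or 21R or treated mouse 30RL or 7-2L (log2FC -0.53, -0.50, -0.54 and -0.56) and with the block (adjusted p = 0.268). Mir17hg, the host transcript of a miRNA cluster, was at 63.3, 89 and 161 and 35.4, 51.8 and 61.7 with no overlap (log2FC = -0.90 ± 0.21, adjusted p = 0.012), was not called with the block (adjusted p = 0.192) and had a direct difference of -0.66 ± 0.15 (direct adjusted p = 0.769). Myc was not called against lean mice (log2FC = -1.10, adjusted p = 0.176), nor was Fndc1, a matrix-associated protein gene at few reads (log2FC = 1.05, adjusted p = 0.153).

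A diet list from other mice gave a view without shared controls. KO obese and KO lean livers, both on vehicle, differed in 705 genes higher and 768 lower, 10.4% of 14192. Of the KO-higher genes 665 were tested in WT mice, and 177 or 26.6% were called higher in WT obese+RvE1 against WT lean livers, with 4 called lower. Of the KO-lower genes 702 were tested, and 104 or 14.8% were called lower, with 10 called higher. Among all genes tested in WT mice 3.78% were called higher and 2.68% lower. The same sign as in KO mice was seen in 68.7% of the KO-higher and 59.3% of the KO-lower genes. Median log2FC in WT obese+RvE1 livers was 0.27 for the KO-higher and -0.12 for the KO-lower genes, against 0.00072 for all genes tested in both. In WT obese livers the same genes had medians of 0.36 and -0.19. The number of shared calls, 281 in all, was 125 with the block in the WT fit. Cyp2b9 (log2FC = 7.64 in KO mice), Cd36 (1.46), Scd1 (-2.25) and Lepr (-3.01), chosen after their values were seen, had the same sign in KO obese as in WT obese+RvE1 livers. Akap5 had the opposite sign (log2FC = 0.74 in KO mice, adjusted p = 0.0462). Other genes called lower in WT obese+RvE1 livers were not called in KO mice. Among these, also chosen after their values were seen, were Irs2 (log2FC = 0.04 in KO mice, adjusted p = 0.945), Hamp (0.33, adjusted p = 0.802) and Smad9 (-0.22, adjusted p = 0.618).

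**Figure D4:**
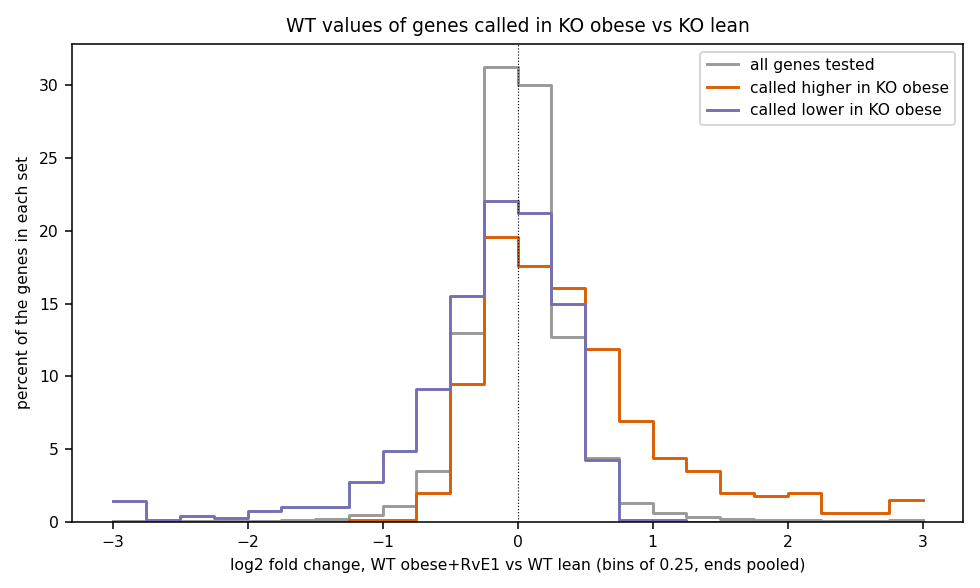
Share of genes, in percent, by log2FC of WT obese+RvE1 against WT lean livers in bins of 0.25, for genes called higher or lower in KO obese livers and for all genes tested. The KO-higher genes are shifted to the right (median 0.27) and the KO-lower ones slightly to the left (median -0.12).

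The joined table leaves out genes that the authors' RvE1 table does not list, in which the lowest mean over obese livers is 11.3 normalized counts. Of 532 genes called in the whole WT diet table, 24 were absent from it, 9 higher and 15 lower in WT obese livers. Nr4a3, an immediate early nuclear receptor gene, and Scd4, a desaturase gene, were among the lower ones, so their level after RvE1 was not analysed here.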

How the data were processed

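Per the study's methods and the submitters' processing notes, stranded paired-end libraries of whole-liver RNA (polyA in the labels, total RNA in the protocol) were aligned to mm10 with Bowtie2, which does not split reads over introns. Pairs with both ends mapped were assigned to genes by featureCounts. Versions, gene annotation and strand setting: not given in the sources used here, so genes that overlap on opposite strands may share reads. The signal values the authors deposited are DESeq2-normalized counts, each table with its own size factors. Columns of the authors' own comparisons hold their fold changes and p-values and were not used. Each value was a whole number of reads times a factor per library (100% within 0.1 reads), so reads were recovered, and 0 sample columns went unused. The 7 vehicle libraries present in both WT tables differed in 0 read values. No library repeated another (smallest chi-square per gene 42.2 over 63 pairs within groups). Date-like or repeated gene names (20 to 22 per table) were left out. Both WT tables held 13058 genes, and 2056 genes listed only with diet and 7 listed only with RvE1 were set aside.

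Median-of-ratios size factors over the 14 libraries put both groups on 1 scale, and the vehicle-treated obese libraries were brought to the same reference. The test was limma 3.58.1 (trend, two-sided, R 4.3.3) on log2 values after adding a pseudocount of 1, for genes with a mean of at least 5 normalized counts, with BH adjustment over all genes. Genes were called where the adjusted p was below 0.1 and expression differed more than 1.5-fold. Each library is 1 mouse, and reads on the joined genes ran from 17090178 to 35833064 in the 14 libraries. Thinning the reads to the smallest total moved the count of called genes from 844 to 826. Values per mouse were compared by exact permutation.

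Alternatives were pseudocounts of 0.5 and 4, no filter or a mean of 20, TMM scaling, equal read totals, reads thinned to 17090178, correction for GC content and length (loess, span 0.3), quality weights, the identifier number as a random block, 1 fit over 21 WT libraries, other thresholds, edgeR 4.0.16 (quasi-likelihood), DESeq2 1.42.0 (Wald, no shrinkage), and mice or identifier numbers left out. Leaving out identifier numbers for results other than the count and the named genes against lean mice, all alternatives for the vehicle comparison, and the block for the KO list were chosen after seeing the data. The limma, edgeR and DESeq2 fits were tested on simulated counts drawn independently for each mouse. The fit with the block was not among them, so that test does not cover shared identifier numbers.

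Genes were named by rule: those the study names for diet or RvE1 in WT mice, the 6 higher and 6 lower with the smallest adjusted p, the 4 and 4 with the largest log2FC where both group means reached 10, the 6 called in either obese group with the smallest direct p, the 4 and 4 called in 1 obese group with a log2FC under 0.2 in size in the other, up to 4 called members per list, and Cmklr1, Ltb4r1 and Rarres2. Gm and Rik names were passed over. Results of a few genes are not reported here. The 30 lists, 19 of them pathways, were written from general knowledge. Members and lists were chosen with earlier results of these data known. Coordinates come from GENCODE M21 (GRCm38, the build of mm10), which matched 12283 of the 13058 names, and promoter windows from RefSeq.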

Additional observations from a re-analysis of the deposited data

Results flagged for a closer look

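Among 98 genes named by rule, tested separately in the 7 WT lean and the 7 WT obese+RvE1 mice, 9 of 196 groups held a mouse whose gap to the nearest other, divided by the group's range, passed Dixon's 95% critical value for 7 mice. Chance marks about 1 group in 20. Gaps and ranges were taken on log2(normalized count + 1), while the values printed below are plain normalized counts.

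Among WT lean mice, Sik1 was 5793 in mouse 19R against 732 to 1499 in the others. Asns was 4.22 in lean mouse 26R against 15.4 to 32.9.

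Among WT obese+RvE1 mice, mouse 30RL had the highest E2f1 at 177, with the others between 79.7 and 104. The same mouse had the lowest Hsd3b5 at 139, with the others between 975 and 2311. Mouse 30R had the lowest Fabp5 at 9.08 against 19.8 to 34.8. Socs2 in mouse 30R was 1410, while the other treated mice ran from 247 to 349. Junb was 852 in mouse 7RL and between 2643 and 3811 in the rest. Lrrc16a in that mouse was 229 against 291 to 322. Orm3 was 75.0 in mouse 7L and 165 to 297 in the rest.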

How the results depend on the processing

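The count of 844 genes called against lean mice was within 1.5-fold under other pseudocounts, filters, scalings, thinning, the GC and length correction, edgeR, DESeq2 and the single fit. It was 1319 with quality weights, 263 with identifier numbers as a block, 2202 with no fold threshold and 138 at a log2FC above 1.5, and 724 to 996 with 1 mouse left out. For WT obese mice the 511 calls became 228 with the block and 267 without number 27. The direct comparison gave 1 call by edgeR, 13 by DESeq2, 0 to 3 with 1 mouse left out (3 without vehicle-treated mouse 6R), 1 each without number 7 or 30, and 47 without number 6. Diet effects that remained, 362, were 122 with the block, 272 to 467 with 1 mouse left out, 567 of 759 without number 8, 179 of 351 (1 opposite) without number 6 and 205 of 267 without number 27. Shared calls with the KO list, 281, were 125 with the block and 257 to 283 with 1 mouse left out. The cause of these shifts was not tested, but leaving out a number also removes mice. Of 140 values for named genes 91 kept their side of the threshold with the block and 49 lost their call, and no called gene changed sign under any alternative. Genes that were not called did in part, such as Hamp2, whose log2FC ran from -1.35 to 1.97, and Acly, from -1.13 to 0.39. No paired analysis was possible because replicates were numbered only in accession order. Low genes such as Cidea, Ptges and Trem2 rest on few reads.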
